A study of Mus musculus with 16 samples.

Results

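Btg2, Tiparp, Ier2, Ier5, Klf2, Klf4, Klf6, Klf10, Atf3 and Maff are 10 regulators that cells switch on early after a stimulus, and their mRNA was followed here in CA1 of the mouse hippocampus. The members were the rows of the deposited FPKM table whose gene symbol is one of these names. All 10 were found among the 17986 genes present for every library, and 7 of them were among the 11892 genes with enough signal to test. The mice were male, on a C57Bl6 background and between 3 and 6 months old. The 4 groups were WT-labelled mice from the home cage (2 libraries), KO-labelled mice from the home cage (2 libraries), WT-labelled mice after spatial exploration (3 libraries) and KO-labelled mice after spatial exploration (3 libraries). WT-labelled means that the genotype label is wild type, and KO-labelled that it is N3 -/-, the deletion of Neil3, a DNA glycosylase gene of base excision repair. Home cage mice had no intervention. The protocol for trained mice describes an open field with sides of 50 cm, visited for 20 min a day over 1 week, and death 20 min after the last session. That protocol speaks of a learning condition. The 6 samples labelled with that condition were not analysed here.

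CA1 was cut from frozen sections by laser dissection, so each library is a mixture of pyramidal neurons, glia and vessels. In such bulk RNA, fewer cells of a type and less RNA per cell cannot be told apart. The counts of animals in the design text match 1 mouse per library in the home cage and after training. Per library, FPKM summed to between 405718 and 466701, from about 18100000 to 19300000 fragments as estimated from the spacing of low values, and 11114 to 11623 genes reached 1 FPKM. The home cage and exploration libraries stand in separate tables, and their joint normalization is not stated, so environment and table cannot be told apart. Rn18s, a ribosomal RNA, had 1715 to 2398 FPKM in the 4 home cage libraries and 5.69 to 10.56 FPKM in the 6 exploration libraries, and its part in the results was not tested. Neil3 went against the labels. Under the wild-type label it read 0 in both home cage libraries and 0, 0 and 0.05 FPKM after exploration. Under the N3 -/- label it read 13.77 and 15.22 FPKM in the home cage, then 15.13, 11.85 and 8.35 FPKM after exploration. Genotype therefore always refers to the label below.

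As background, immediate early genes are transcribed within minutes of a stimulus without new protein synthesis, from short genes with preloaded promoters, and their mRNAs decay fast. In hippocampal neurons, calcium entry during activity drives them through CREB, SRF and MEF2, and several encode regulators that shape the later gene response. Btg2 belongs to the Btg and Tob family, which restrains proliferation and recruits the Ccr4-Not deadenylase to mRNAs. Ier2 and Ier5 are small nuclear proteins of the immediate early response, and Tiparp is a mono-ADP-ribosyltransferase that is induced by, and represses, the aryl hydrocarbon receptor. Klf2, Klf4, Klf6 and Klf10 are zinc finger factors that bind GC-rich promoters. Atf3 is a stress-induced factor of the ATF and CREB family, and Maff is a small Maf protein, which lacks a transactivation domain and acts as a partner of other bZIP factors.

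Most of these genes have few exons. Ier2 and Ier5 have 1 exon, Btg2 has 2, Klf2 and Maff have 3, Klf6, Klf10 and Atf3 have 4, Klf4 has 5 and Tiparp has 6, counted in the longest GENCODE transcript that matches the table's RefSeq accessions. The median was 3.5 exons for the 10 members and 9 for the 11349 tested genes that could be matched, and 30.0% of members against 7.2% of those genes had 2 or fewer exons. Transcript lengths were closer, with a median of 2886 nt in the members and 3111 nt in those genes. The median 3′UTR was longer in the members, at 1356.5 nt against 1155 nt. AU-rich elements in the 3′UTR are bound by proteins that speed decay, and their core is ATTTA. Tiparp carried 9 copies of it, Klf6 had 7, Btg2 had 5, Klf10 and Maff had 4, Atf3 had 3, Ier5 had 2, Klf2 and Klf4 had 1, and Ier2 had 0. Per kb of 3′UTR, the median was 2.26 copies in the members and 1.31 in the matched tested genes. Tiparp, at 4.61 copies per kb, lay above 92.4% of those genes.

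The stretch just upstream of the start was read for 4 binding motifs in the 8 members with a RefSeq promoter entry (GRCm38.p6). These were Btg2, Tiparp, Ier5, Klf2, Klf4, Klf6, Atf3 and Maff. Ier2 and Klf10 had no entry. The window was the 250 bases before the gene start, on both strands. The full cAMP response element TGACGTCA, the site of CREB and ATF factors, was found in 2 of 8 members, against 3.27% of the 9478 tested genes with an entry and 1.55% of all 32851 promoters. Its core CGTCA, which the full element contains, was found in 5 of 8 members (Atf3, Btg2, Klf2, Klf4 and Maff), against 31.7% of tested genes. The MEF2 site was found in 2 of 8 members (Atf3 and Klf2), against 1.85%, and the SRF-binding CArG box in 0 of 8, against 1.34%. A match is a run of letters and was not tested for binding. 4 windows are printed, 5′ to 3′ on the gene's strand. Btg2 is shown as the member with the highest fold after exploration, at chr1:134079156-134079405 on the minus strand. Its capitals mark the full element, which begins 166 bases before the start. Tiparp, at chr3:65528197-65528446 on the plus strand, is shown as a member that rose and matched none of the 4 motifs. Klf2, at chr8:72318812-72319061 on the plus strand, has capitals at the core CGTCA (read on the other strand, 241 bases before the start) and at the MEF2 site (118 bases before). The second of 3 Maff start sites, at chr15:79347270-79347519 on the plus strand, has the full element 29 bases before the start, although Maff mRNA was near the detection floor.
Btg2: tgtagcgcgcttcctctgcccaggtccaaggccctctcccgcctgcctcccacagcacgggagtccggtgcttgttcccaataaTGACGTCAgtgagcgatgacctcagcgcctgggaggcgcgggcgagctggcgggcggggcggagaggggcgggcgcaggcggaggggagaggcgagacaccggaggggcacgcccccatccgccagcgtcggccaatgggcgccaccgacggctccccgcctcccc
Tiparp: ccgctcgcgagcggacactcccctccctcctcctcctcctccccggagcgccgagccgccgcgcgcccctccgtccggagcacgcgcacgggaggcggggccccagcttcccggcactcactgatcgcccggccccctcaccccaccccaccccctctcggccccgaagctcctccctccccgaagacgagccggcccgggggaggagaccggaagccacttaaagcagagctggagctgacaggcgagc
Klf2: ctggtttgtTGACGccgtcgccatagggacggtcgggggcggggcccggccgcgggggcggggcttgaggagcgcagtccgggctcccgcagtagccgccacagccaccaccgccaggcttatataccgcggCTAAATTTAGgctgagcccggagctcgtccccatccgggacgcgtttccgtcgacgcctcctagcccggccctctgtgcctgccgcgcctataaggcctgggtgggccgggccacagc
Maff: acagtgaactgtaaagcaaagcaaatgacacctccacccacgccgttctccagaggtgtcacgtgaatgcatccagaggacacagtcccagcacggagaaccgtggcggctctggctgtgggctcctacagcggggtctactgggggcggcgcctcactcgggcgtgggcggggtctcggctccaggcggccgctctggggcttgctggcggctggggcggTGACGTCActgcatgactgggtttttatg

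Across libraries the members spanned levels from a few fragments up to 42.16 FPKM. In the home cage, over 4 libraries of both labels, mean FPKM ± SD was highest for Ier5 (29.5 ± 2.94), followed by Klf10 (23.1 ± 2.53) and Klf6 (11.9 ± 1.94). Ier2 (6.70 ± 3.35), Tiparp (4.93 ± 0.977) and Btg2 (3.14 ± 0.946) came next, then Klf2 (1.97 ± 0.788), Klf4 (0.538 ± 0.255), Maff (0.103 ± 0.0885) and Atf3 (0.050 ± 0.047). The intervals of 1 SD overlapped between Klf6 and Ier2, Ier2 and Tiparp, Tiparp and Btg2, Btg2 and Klf2, and Maff and Atf3, so the order of these neighbours is within their spread. After exploration, over 6 libraries, Ier5 stayed highest (35.9 ± 4.22). Klf10 (21.0 ± 3.25), Ier2 (20.4 ± 2.00) and Btg2 (16.3 ± 3.49) overlapped with their neighbour in the order. Klf6 (9.51 ± 1.01) and Tiparp (9.31 ± 1.06) overlapped too, above Klf2 (3.02 ± 0.511), Klf4 (0.650 ± 0.164), Maff (0.217 ± 0.105) and Atf3 (0.0983 ± 0.0794), of which the last pair overlapped. By mean, Btg2 thus passed Tiparp and Klf6 in the order and Ier2 passed Klf6.

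**Figure D1:**
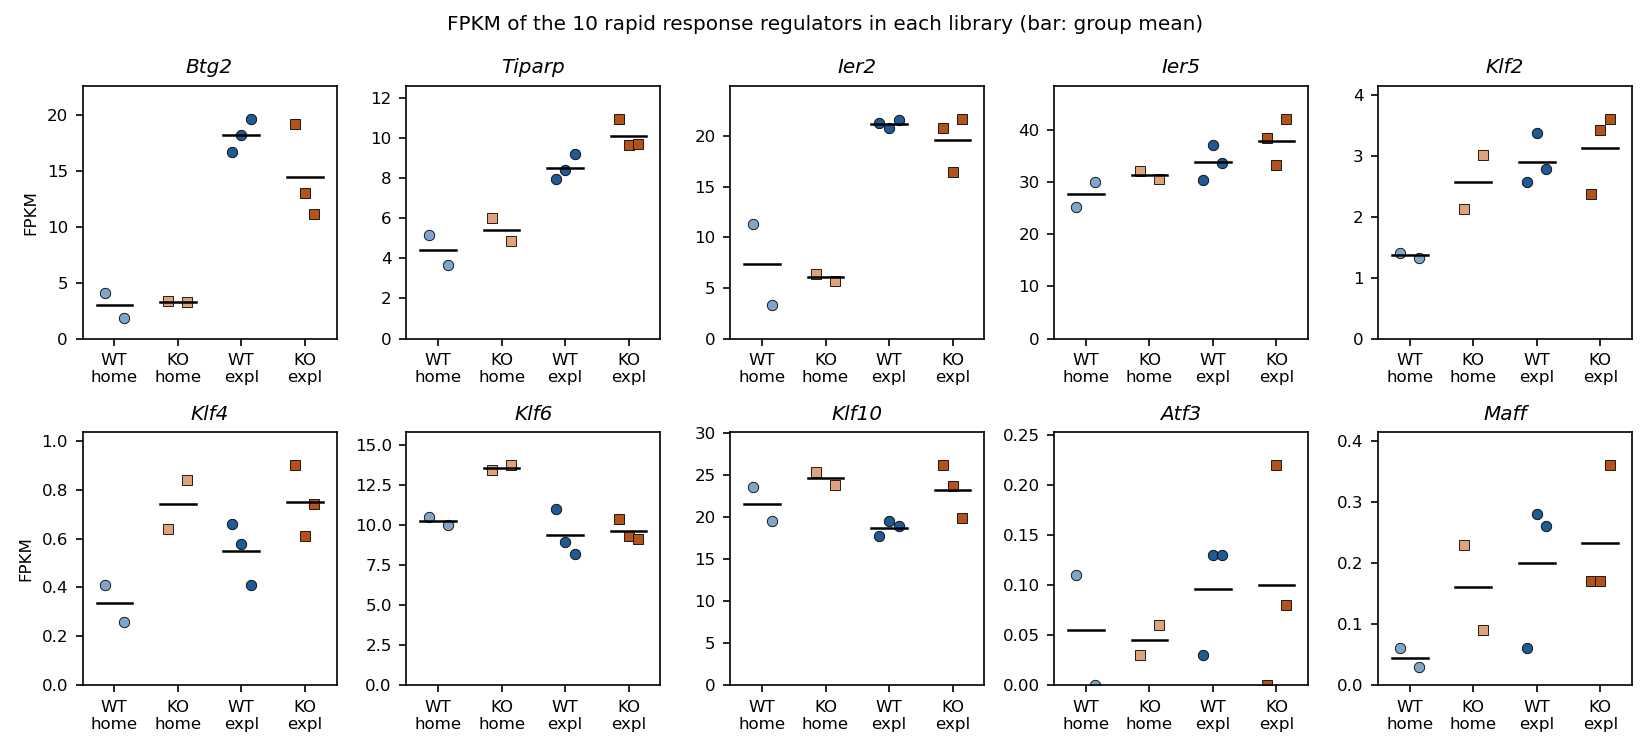
Each panel shows 1 member, with FPKM on a linear axis from 0 (scales differ between panels), 1 point per library and a bar at the group mean. WT and KO are the genotype labels, home the home cage and expl spatial exploration. In Btg2, Tiparp and Ier2 every exploration point lies above every home cage point, whereas the groups overlap in Ier5, Klf2, Klf6 and Klf10.

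The exploration comparison asks which members differ between mice killed after open field sessions and mice taken from the home cage. Btg2, Ier2 and Tiparp were higher after exploration in both labels, by 5.2, 3.05 and 1.89 times over all libraries. Klf2 rose in the WT-labelled mice and Klf6 fell in the KO-labelled mice. In the other label each moved the same way without passing the test. Neither gene passed the test for a difference in response between labels (limma adjusted p 0.294 for Klf2 and 0.321 for Klf6). Ier5 rose by a small amount when both labels were averaged, and Klf10 did not pass the test. Changes were tested with limma on log2(FPKM + 1), a scale that understates the change of low genes, and the word called is used for an adjusted p under 0.05 over all 11892 tested genes. In WT-labelled mice 4 of 7 tested members were called higher and 0 lower, where 2.02% of all tested genes were called higher and 4.29% lower. In KO-labelled mice 3 of 7 were called higher and 1 lower, against 12.0% and 16.6% of all tested genes. Averaged over labels 5 of 7 were higher and 1 lower, against 12.6% and 19.2%. The median log2 change of the tested members was 0.72 in WT-labelled, 0.26 in KO-labelled and 0.46 averaged, beside medians of -0.02, -0.04 and -0.03 over all tested genes. All 6 exploration libraries lay above all 4 home cage libraries in 3 of 7 members (Btg2, Tiparp and Ier2) and in 6.49% of tested genes. They lay below all 4 in 0 of 7 members and in 10.4% of tested genes.

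**Figure D2:**
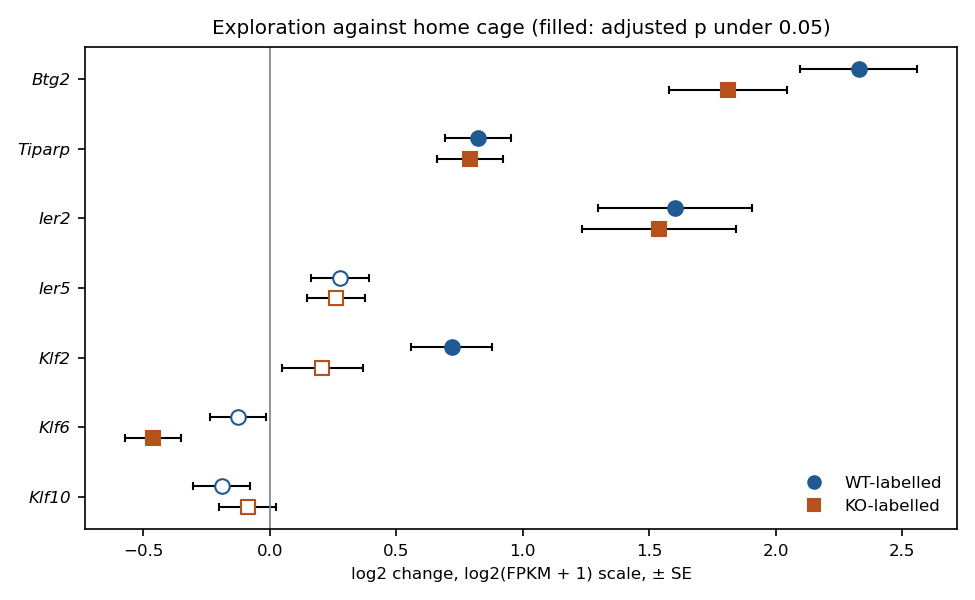
The horizontal axis is the log2 change after exploration against the home cage on the log2(FPKM + 1) scale, with bars of 1 SE, and each row is a tested member. Circles are WT-labelled, squares are KO-labelled, and filled symbols mark an adjusted p under 0.05. Btg2, Ier2 and Tiparp lie to the right of 0 in both labels, while Klf6 lies at -0.13 in WT-labelled and at -0.46 in KO-labelled libraries.

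Btg2 (gene ID 12227; chr1:134074865-134079155, minus strand) had the highest fold of the members. In WT-labelled mice the home cage libraries had 4.11 and 1.84 FPKM and the exploration libraries 16.67, 18.17 and 19.62 FPKM. In KO-labelled mice it was at 3.36 and 3.23 FPKM in the home cage and at 19.21, 12.98 and 11.13 FPKM after exploration. The lowest exploration library was therefore well above the highest home cage library in both labels. The mean rose 6.10 times in WT-labelled mice (log2 change 2.33, SE 0.23, limma adjusted p 0.000244). It rose 4.38 times in KO-labelled mice (log2 change 1.81, SE 0.23, limma adjusted p 0.00106). The averaged log2 change of 2.07 ranked 4 among the 11892 tested genes in descending order. The test for a difference in response between labels was not passed (log2 difference -0.52, 95% interval -1.23 to 0.20, limma adjusted p 0.475). The other Btg and Tob genes changed less. All 4 that were tested had an averaged log2 change above 0, with a median of 0.17 beside -0.03 over all tested genes. Of the 4 tested, Tob2 was called, with 6.11 ± 0.371 FPKM in the home cage and 7.14 ± 0.448 after exploration (SD, n = 4 and 6; averaged log2 change 0.20, limma adjusted p 0.0491), a call lost in 10 of 14 alternatives (limma adjusted p 0.0325 to 0.189). Btg1, Btg3 and Tob1 were not called in that comparison.

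Ier2 (gene ID 15936; chr8:84661331-84662852) had 11.32 and 3.35 FPKM in the WT-labelled home cage libraries and 21.3, 20.81 and 21.55 FPKM after exploration. In KO-labelled mice it was at 6.41 and 5.72 FPKM in the home cage and at 20.78, 16.42 and 21.68 FPKM after exploration. The exploration libraries were tightly grouped, and the spread lay in the home cage, where the WT-labelled pair differed 3.38 times. Ier2 rose 2.89 times in WT-labelled mice (log2 change 1.60, SE 0.30, limma adjusted p 0.0123) and 3.24 times in KO-labelled mice (log2 change 1.54, SE 0.30, limma adjusted p 0.00495). Without WT-labelled home cage library 2 the WT-labelled change was 0.85 and still called (limma adjusted p 0.0254), and without library 1 it was 2.35. In KO-labelled mice the call was lost without home cage library 2 (log2 change 1.47, limma adjusted p 0.067). The difference in response between labels was -0.06 (95% interval -1.0 to 0.87), an interval too wide to show that the responses were alike.

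Ier5 (gene ID 15939; chr1:155096367-155099636, minus strand) was the most abundant member and moved least among the members called higher. It was at 25.33 and 30.09 FPKM in the WT-labelled home cage and at 30.37, 37.24 and 33.79 FPKM after exploration. In KO-labelled mice the values were 32.14 and 30.6 FPKM in the home cage and 38.43, 33.34 and 42.16 FPKM after exploration. Within each label the exploration libraries lay above the home cage libraries, but the labels overlapped. Neither label alone passed the test (log2 change 0.28, limma adjusted p 0.173, and 0.26, limma adjusted p 0.104). The averaged change of 0.27 did (SE 0.08, limma adjusted p 0.0256). That call was lost without WT-labelled home cage library 1 (0.21, limma adjusted p 0.104), KO-labelled home cage library 2 (0.25, limma adjusted p 0.094) or WT-labelled exploration library 2 (0.23, limma adjusted p 0.0557). The KO-labelled change was called without KO-labelled exploration library 2 (0.35, limma adjusted p 0.0499). The remaining Ier genes in the table, Ier3 and Ier5l, were both tested and neither was called.

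Tiparp (gene ID 99929; chr3:65528447-65555518, plus strand) was at 5.17 and 3.67 FPKM in the WT-labelled home cage and at 7.95, 8.42 and 9.18 FPKM after exploration. In KO-labelled mice it was at 6.03 and 4.84 FPKM in the home cage and at 10.95, 9.66 and 9.7 FPKM after exploration. No exploration library overlapped a home cage library. It rose 1.93 times in WT-labelled mice (log2 change 0.82, SE 0.13, limma adjusted p 0.00466) and 1.86 times in KO-labelled mice (log2 change 0.79, SE 0.13, limma adjusted p 0.0024). The WT-labelled call was lost without home cage library 2 (0.62, limma adjusted p 0.0836). The difference in response was -0.03 (95% interval -0.44 to 0.37). Among 4 other tested genes of the aryl hydrocarbon receptor pathway, 0 were called higher and 1 lower in the averaged comparison. That gene was Arnt, the receptor's dimer partner, which fell from 7.27 ± 1.53 to 3.56 ± 0.453 FPKM (SD, n = 4 and 6; averaged log2 change -0.85, limma adjusted p 0.000107). Ahrr, Cyp1a1 and Cyp1b1, which the receptor induces, were below the expression filter.

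Klf2 (gene ID 16598; chr8:72319062-72321654, plus strand), known as a flow-responsive factor of endothelium, was at 1.41 and 1.32 FPKM in the WT-labelled home cage libraries, the lowest values of the 10. The KO-labelled home cage libraries were at 2.13 and 3.02 FPKM. After exploration it was at 2.57, 3.38 and 2.78 FPKM in WT-labelled and at 2.38, 3.42 and 3.61 FPKM in KO-labelled mice. The WT-labelled home cage pair thus stood below the other 8 libraries, which overlapped with each other. In WT-labelled mice Klf2 was 2.13 times higher after exploration (log2 change 0.72, SE 0.16, limma adjusted p 0.0236). That call was lost without any 1 of the 5 WT-labelled libraries (log2 change 0.64 to 0.78, limma adjusted p 0.0547 to 0.195) and with no filter (limma adjusted p 0.0599). In KO-labelled mice the change was 0.21 (SE 0.16, limma adjusted p 0.347). In the home cage KO-labelled mice had 1.89 times the WT-labelled level (log2 difference 0.59, 95% interval 0.20 to 0.97), which did not pass after adjustment (unadjusted p 0.00604, limma adjusted p 0.0951) but did without KO-labelled exploration library 1 (limma adjusted p 0.0487). The home cage comparison shares its WT-labelled libraries with the exploration comparison. The difference in response between labels, -0.51 (95% interval -1.01 to -0.02), did not pass (unadjusted p 0.0434, limma adjusted p 0.294).

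The summed astrocyte, microglial, oligodendrocyte, endothelial and mural cell markers were all, like Klf2, lowest in the WT-labelled home cage libraries. The summed FPKM of 8 astrocyte markers was 171 to 186 in the WT-labelled home cage, 260 to 304 in the KO-labelled home cage, 207 to 269 after exploration in WT-labelled and 251 to 292 in KO-labelled mice. Of these 8 markers, 4 were called higher after exploration in WT-labelled mice and 3 higher in KO-labelled mice in the home cage. Gfap, an astrocyte filament, had group means of 13.97, 34.77, 23.01 and 29.21 FPKM in the same order, Aqp4, a water channel, of 3.98, 6.74, 4.83 and 6.41 FPKM, and Aldh1l1, a folate enzyme, of 2.44, 3.05, 3.29 and 3.60 FPKM. The 10 microglial markers summed to 65.5 to 72.5 FPKM in the WT-labelled home cage and to 85.1 to 104 FPKM in the other 8 libraries, and 4 of 10 were called higher after exploration in WT-labelled mice. The 10 endothelial markers summed to 25.9 to 26.7 FPKM in the WT-labelled home cage and to 26.9 to 37.8 FPKM elsewhere, and 0 of the 7 tested were called in that comparison. In the home cage, 2 microglial markers and 1 endothelial marker were called higher in KO-labelled mice. The 6 mural cell markers summed to 14.4 to 16.4 FPKM and to 17.4 to 26.0 FPKM, respectively. The 8 oligodendrocyte markers summed to 141 to 168 FPKM in the WT-labelled home cage and to 192 to 373 FPKM elsewhere. Of these 8, 5 were called higher after exploration in WT-labelled mice. No marker of these lists was at 0 in every library, and their part in the Klf2 result was not tested.

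**Figure D3:**
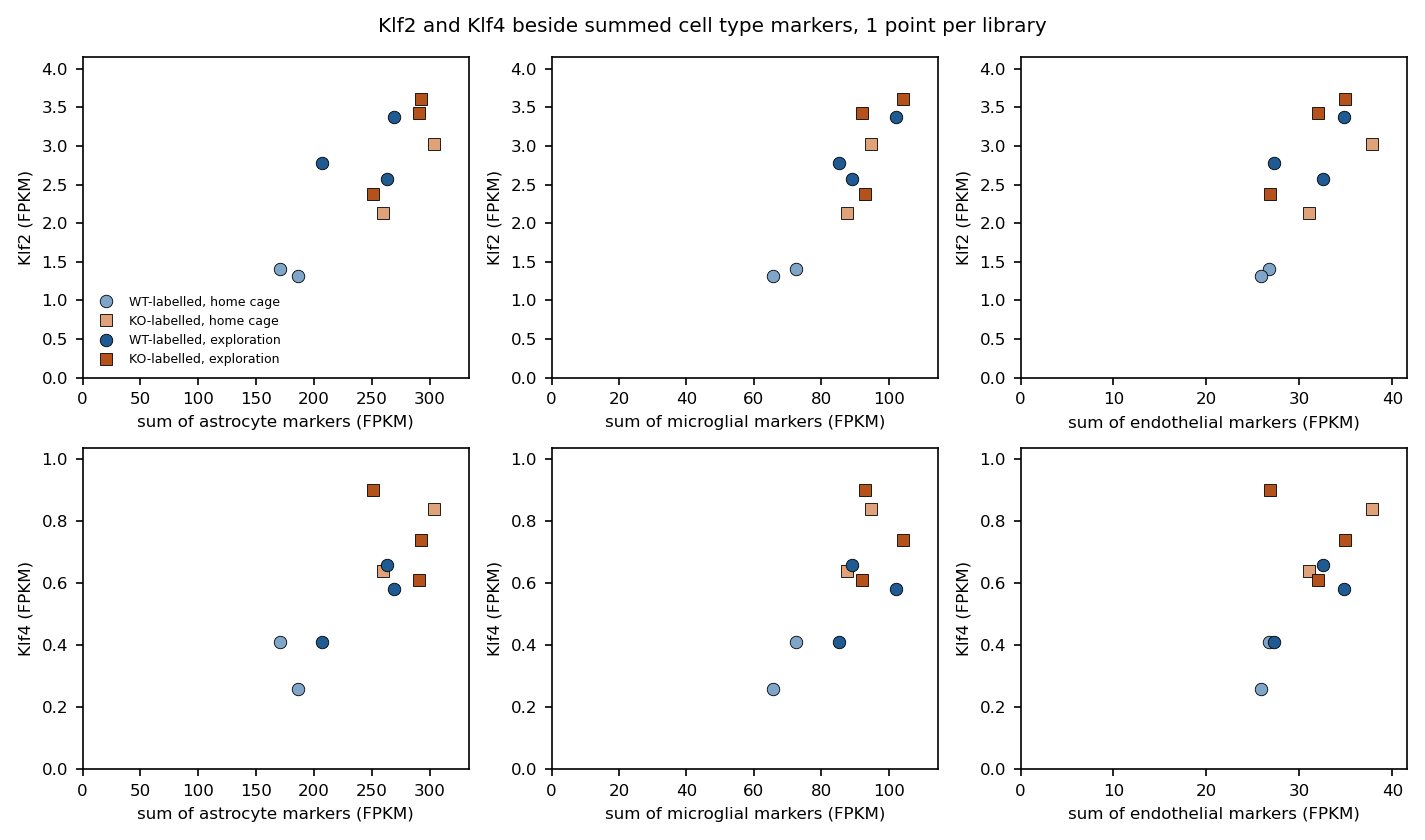
Each point is 1 library, with Klf2 (top row) or Klf4 (bottom row) in FPKM on the vertical axis and the summed FPKM of astrocyte, microglial or endothelial markers on the horizontal axis, all axes starting at 0. Colour and shape give the label and environment. The WT-labelled home cage libraries sit at the lower left, with Klf2 at 1.41 and 1.32 FPKM.

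Klf4 (gene ID 16600; chr4:55527137-55532475, minus strand), a pluripotency and endothelial factor, was below the filter of 1 FPKM in at least 2 libraries and had no place in the main test. It was at 0.41 and 0.26 FPKM in the WT-labelled home cage, while the KO-labelled home cage libraries had 0.64 and 0.84 FPKM. After exploration it was at 0.66, 0.58 and 0.41 FPKM in WT-labelled and at 0.9, 0.61 and 0.74 FPKM under the KO label. The WT-labelled home cage libraries were lowest, with a tie at 0.41 FPKM with an exploration library of the same label. With no filter, the home cage difference between labels was 0.38 (SE 0.11, unadjusted p 0.00721, limma adjusted p 0.139), and no change with exploration was called.

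Klf6 (gene ID 23849; chr13:5861489-5870393, plus strand), a factor induced by injury and growth signals, was the member that fell. In KO-labelled mice it was at 13.48 and 13.75 FPKM in the home cage and at 10.38, 9.35 and 9.17 FPKM after exploration. In WT-labelled mice it was at 10.49 and 10.05 FPKM in the home cage and at 11, 8.96 and 8.21 FPKM after exploration. The KO-labelled home cage pair stood above all other libraries, and the WT-labelled groups overlapped. In KO-labelled mice the exploration mean was 0.708 times the home cage mean (log2 change -0.46, SE 0.11, limma adjusted p 0.0116), a call lost without home cage library 2 (-0.45, limma adjusted p 0.104). In WT-labelled mice the change was -0.13 (SE 0.11, limma adjusted p 0.534). The averaged change was -0.29 (SE 0.08, limma adjusted p 0.016), a call that was lost when WT-labelled home cage library 1 was left out (-0.28, limma adjusted p 0.0502) or when KO-labelled home cage library 2 was (-0.29, limma adjusted p 0.0588). In the same KO-labelled comparison 6 of 8 CA1 pyramidal markers were called lower and 1 higher, and 5 of 7 tested CA2 and CA3 markers were called higher and 1 lower. Over all tested genes 16.6% were called lower and 12.0% higher. Their part in the Klf6 result was not tested. The difference in response between labels was -0.33 (95% interval -0.68 to 0.01, limma adjusted p 0.321). In the home cage, Klf6 was 1.33 times higher in KO-labelled mice (log2 difference 0.38, 95% interval 0.11 to 0.64), which did not pass after adjustment (unadjusted p 0.00948, limma adjusted p 0.118).

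Klf10 (gene ID 21847; chr15:38291464-38300711), a gene induced by TGF-beta, was at 23.59 and 19.5 FPKM in the WT-labelled home cage and at 17.7, 19.51 and 18.89 FPKM after exploration. In KO-labelled mice it was at 25.42 and 23.87 FPKM in the home cage and at 26.16, 23.74 and 19.93 FPKM after exploration. Home cage and exploration libraries overlapped in both labels. The averaged log2 change was -0.14 (95% interval -0.31 to 0.04, limma adjusted p 0.204), so a rise of more than 0.04 on this scale lay outside the interval. After exploration all 3 KO-labelled libraries were above all 3 WT-labelled ones, with means of 23.28 ± 3.14 and 18.70 ± 0.920 FPKM (SD, n = 3 each). That difference of 0.29 (95% interval 0.07 to 0.52) did not pass after adjustment (unadjusted p 0.0137, limma adjusted p 0.184).

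Atf3 (gene ID 11910; chr1:191170296-191183333, minus strand) was at the detection floor. It was at 0.11 and 0 FPKM in the WT-labelled home cage, at 0.03 and 0.06 FPKM under the KO label there, at 0.03, 0.13 and 0.13 FPKM after exploration in WT-labelled and at 0, 0.22 and 0.08 FPKM under the KO label. In fragments these values came to about 0 to 8 per library, 1 fragment being worth 0.0268 to 0.0286 FPKM. The groups overlapped, with no library above 0.22 FPKM, and small changes could not be read from so few fragments. Maff (gene ID 17133; chr15:79346621-79359078, plus strand) was at 0.06 and 0.03 FPKM in the WT-labelled home cage, while the KO-labelled home cage libraries had 0.23 and 0.09 FPKM. After exploration it was at 0.06, 0.28 and 0.26 FPKM in WT-labelled and at 0.17, 0.17 and 0.36 FPKM in KO-labelled mice, and the groups again overlapped. With no filter, the averaged change of Maff was 0.14 (SE 0.07, limma adjusted p 0.183) and that of Atf3 0.06 (SE 0.06, limma adjusted p 0.491).

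Of 7 relatives of Atf3 and Maff in the table, Batf and Batf3 were below the expression filter too. Of the 5 tested, 3 were called higher and 0 lower in the averaged comparison, and the same counts held in KO-labelled mice, while 0 of 5 were called in WT-labelled mice. Over all tested genes 12.6%, 12.0% and 2.02% were called higher in these comparisons. Atf4, the translationally controlled factor of the integrated stress response, was at 121 ± 31.4 FPKM in the home cage and 170 ± 30.6 after exploration (SD, n = 4 and 6; averaged log2 change 0.50, limma adjusted p 0.0246), a call lost in 5 of 14 alternatives (limma adjusted p 0.00414 to 0.126). Mafk, a small Maf like Maff, was at 6.42 ± 0.956 and 9.03 ± 1.05 FPKM (averaged log2 change 0.44, limma adjusted p 0.00197). Jdp2, a repressor closely related to Atf3, was at 31.72 and 30.23 FPKM in the WT-labelled home cage, while the KO-labelled home cage libraries had 23.68 and 17.16 FPKM. After exploration it was at 27.99, 29.14 and 30 FPKM in WT-labelled and at 34.83, 34.44 and 40.36 FPKM in KO-labelled mice. The KO-labelled home cage pair was lowest and the KO-labelled exploration libraries highest. The difference in response between labels was 0.91 (SE 0.17, limma adjusted p 0.0496). That call was lost in 10 of 14 alternatives, among them a pseudocount of 0.1, no filter and leaving out each of 8 single libraries (limma adjusted p 0.00623 to 0.219 over the 14). The home cage difference of -0.59 (limma adjusted p 0.0323) was lost in 8 of 15 (limma adjusted p 0.00519 to 0.214). Of 8 tested integrated stress response genes, 3 were called higher and 0 lower on average, against 12.6% and 19.2% of all tested genes. These were Psat1, a serine synthesis enzyme (log2 change 0.34), Atf4, and Ddit3, a C/EBP-related factor (log2 change 0.38). The same 3 were called higher in KO-labelled mice, where 12.0% of all tested genes were. In WT-labelled mice 0 of 8 were called, where 2.02% of all tested genes were called higher. Log2 changes in KO-labelled and WT-labelled mice were 0.34 and 0.34 for Psat1, 0.64 and 0.37 for Atf4, and 0.64 and 0.12 for Ddit3. Psat1 thus changed alike in both labels (limma adjusted p 0.0326 and 0.0739). The KO-labelled calls were lost in 5 of 15 alternatives for Psat1, 7 of 15 for Atf4 and 1 of 15 for Ddit3. The averaged call of Ddit3 was lost in 1 of 14 alternatives.

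The whole Klf family, 17 genes in the table, gave a reference for the 4 Klf members. Of 10 tested, 1 was called higher (Klf2) and 3 lower (Klf5, Klf6 and Klf15) in the averaged comparison. Over all tested genes 12.6% were called higher and 19.2% lower, so these counts are near those shares. Klf9, a glucocorticoid-responsive factor, was the most abundant, at 57.5 ± 3.94 FPKM in the home cage and 57.8 ± 3.66 after exploration (SD, n = 4 and 6; averaged log2 change 0.01, SE 0.05). Klf16 and Klf13 were next by level, and neither was called. Klf15, which responds to glucocorticoid, fell from 6.68 ± 1.05 to 5.40 ± 1.18 FPKM (averaged log2 change -0.27, limma adjusted p 0.0282, lost in 7 of 14 alternatives with a range of 0.0133 to 0.0896). Klf5 fell from 1.72 ± 0.274 to 1.14 ± 0.308 FPKM (averaged log2 change -0.35, limma adjusted p 0.0398, lost in 9 of 13 alternatives with a range of 0.0128 to 0.167). Over the 10 tested Klf genes the median averaged log2 change was -0.06, beside -0.03 over all tested genes. Klf1, Klf4, Klf8, Klf11, Klf12, Klf14 and Klf17 were below the filter, and Klf17 was listed at 0 in every library.

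**Figure D4:**
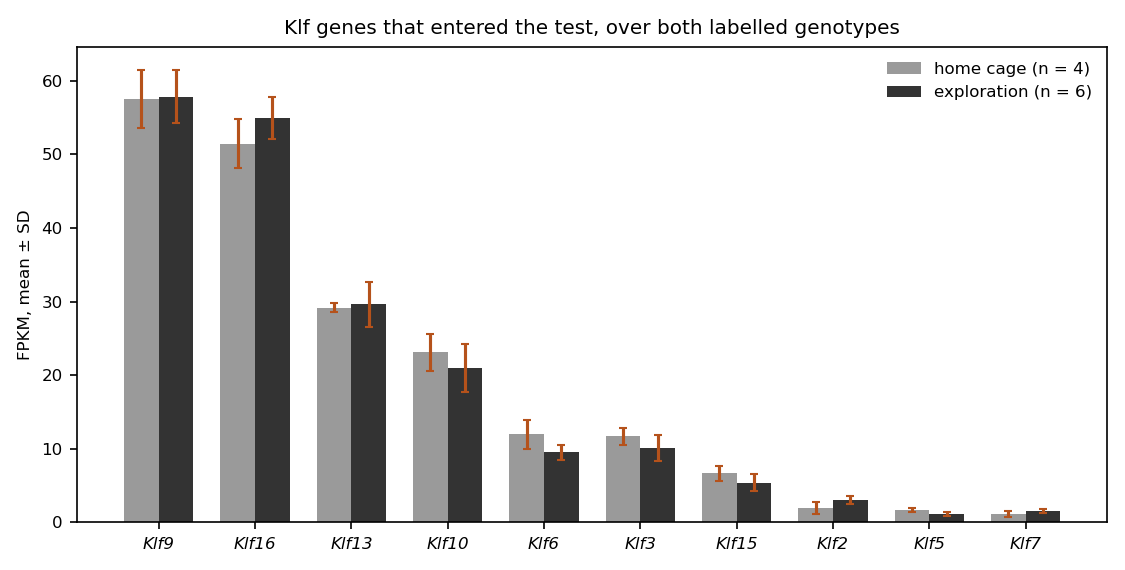
Bars give the mean FPKM of the 10 Klf genes that entered the test, in the home cage (grey, n = 4) and after exploration (dark, n = 6), over both labels, with error bars of 1 SD and an axis from 0. Klf9 is near 57 FPKM in both environments, and Klf2 is 1 of the lowest, at 1.97 and 3.02 FPKM.

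Set beside other early genes, the members split. A list of 20 other rapid response genes had 16 called higher and 1 lower in the averaged comparison, 13 and 0 in WT-labelled mice, and 13 and 1 in KO-labelled mice, with a median averaged log2 change of 0.74. Fos, an AP-1 subunit, was at 8.17 ± 5.80 FPKM in the home cage and 43.7 ± 4.80 after exploration (SD, n = 4 and 6; averaged log2 change 2.50, limma adjusted p 0.000432). Egr2, a zinc finger factor, rose by 2.16 and Arc, a synaptic effector, by 1.67 on the same scale. Nfkbiz, a nuclear regulator of NF-kB, fell by 0.75. Of 14 tested slower activity-dependent genes 4 were called higher and 0 lower, with a median of 0.10. These were Inhba, an activin subunit (0.57), the nuclear receptors Nr4a2 (0.33) and Nr4a3 (0.23), and the neurotrophin Bdnf. The call of Nr4a2 was lost in 6 of 14 alternatives (limma adjusted p 0.0194 to 0.154). Btg2, Ier2 and Tiparp had log2 changes above the median of the rapid list, and Ier5, Klf2, Klf6 and Klf10 below it.

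The genes most like Btg2 over the 10 libraries, by Pearson correlation on log2(FPKM + 1) among 11891 tested genes, were Gadd45b (0.98), Dusp1 (0.97), Rn28s1 (0.97), Junb (0.96) and Egr2 (0.96). Rn28s1 is a ribosomal RNA entry with 0 to 4.57 FPKM. Klf2 was most like Gstm1 (0.98), Cdc42ep4 (0.96), Scd1 (0.95), Gja1 (0.94) and Glul (0.92), of which Gja1 was also on the astrocyte list. Between members, Btg2 and Ier2 correlated at 0.95, Btg2 and Tiparp at 0.92 and Tiparp and Ier2 at 0.91, whereas Btg2 and Klf6 were at -0.61. The points share their tables and groups, so these coefficients carry the environment difference and are given as descriptions.

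The genotype comparisons ask whether members differ between labels within an environment. In the home cage 0 of 7 tested members were called by limma, where 3.57% of all tested genes were, and 2 of 7 (Klf2 and Klf6) had an unadjusted p under 0.05, beside 18.3% of all tested genes. After exploration 0 of 7 were called, where 0.597% of tested genes were, and 1 of 7 (Klf10) had an unadjusted p under 0.05, beside 17.2%. For the difference in response 0 of 7 were called, where 0.875% of tested genes were, and 1 of 7 (Klf2) had an unadjusted p under 0.05, beside 16.1%. These member counts are near the shares over all tested genes. Median log2 differences of the tested members were 0.19, 0.07 and -0.06, beside -0.02, -0.01 and 0.00 over all tested genes. The home cage median was 0.46 without WT-labelled home cage library 1 and 0.06 without library 2, and the median difference in response was -0.36 without library 1. For Btg2 the difference was 0.17 in the home cage (95% interval -0.38 to 0.73) and -0.34 after exploration (-0.80 to 0.11). For Ier2 it was -0.05 (-0.78 to 0.67) and -0.12 (-0.71 to 0.48), intervals that leave room for a KO-labelled level more than 1.5 times lower. For Tiparp it was 0.26 (-0.06 to 0.57) and 0.22 (-0.03 to 0.48), and for Ier5 0.18 (-0.10 to 0.45) and 0.16 (-0.06 to 0.38). The home cage values of Ier2 and Btg2 turned with the WT-labelled home cage library left out. For Ier2 the difference was -0.80 without library 2 (called lower, limma adjusted p 0.0293) and 0.70 without library 1 (limma adjusted p 0.151). For Btg2 it was -0.25 without library 2 (limma adjusted p 0.717) and 0.60 without library 1 (limma adjusted p 0.34).

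**Figure D5:**
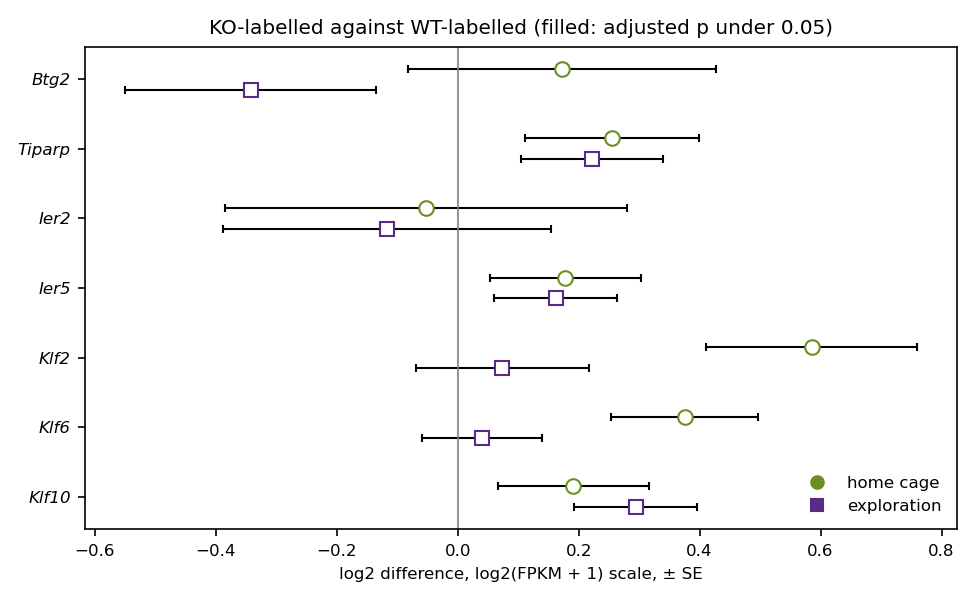
The horizontal axis is the log2 difference of KO-labelled against WT-labelled libraries on the log2(FPKM + 1) scale, with bars of 1 SE, and each row is a tested member. Circles are the home cage and squares are exploration. All symbols are open, since no adjusted p was under 0.05, and the value farthest from 0 is Klf2 in the home cage at 0.59.

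The WT-labelled home cage pair is given separately, since it sets the baseline of the WT-labelled response. On the log2(FPKM + 1) scale library 1 exceeded library 2 by 1.5 in Ier2, by 0.85 in Btg2, by 0.40 in Tiparp and by 0.26 in Klf10. Ier2 ranked 16 and Btg2 ranked 56 among the 11892 tested genes for this excess. An excess above 0.5 was found in 2 of 7 members and in 1.53% of all tested genes. The same libraries differed in Fos (16.28 and 2.5 FPKM) and Egr2 (2.73 and 0.59 FPKM). Ier5 went the other way, by -0.24. In the KO-labelled home cage pair 0 of 7 tested members differed by more than 0.5 in either direction, beside 4.29% of all tested genes. In the WT-labelled pair 1.38% of tested genes were lower by more than 0.5 in library 1. Library 1 also held markers of neighbouring tissue. Its 6 choroid plexus markers summed to 236 FPKM, led by Ttr at 218.7 FPKM, while library 2 had 18.3 FPKM. The 2 other libraries above 100 FPKM were WT-labelled exploration libraries 1 and 2. Folr1 and Kl, also on that list, were at 0.84 and 14.7 FPKM in library 1 and at 0 and 13.74 FPKM in library 2. The 8 CA2 and CA3 markers summed to 272 FPKM in library 1, to 140 FPKM in library 2, to 120 and 122 FPKM in the KO-labelled home cage and to 199 to 312 FPKM after exploration. Pcp4, which marks CA2, was at 84.32 and 10.66 FPKM in libraries 1 and 2, Rgs14 at 127.09 and 102.18 FPKM, and Amigo2 at 16.11 and 1.78 FPKM. Their part in the excess was not tested.

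Among the other marker lists, the blood and interneuron sums were higher in every exploration library than in every home cage library. The CA1 pyramidal, dentate and oligodendrocyte sums overlapped between environments. The 8 CA1 pyramidal markers summed to 843 to 907 FPKM in the WT-labelled home cage, 947 to 972 in the KO-labelled home cage, 831 to 897 in WT-labelled and 782 to 835 in KO-labelled exploration libraries, so the list was expressed in every library. In the home cage, 2 of these 8 markers were called higher and 1 lower in KO-labelled mice. The sum does not show these opposite changes. The 6 dentate markers summed to 1.61 to 4.35 FPKM, with Prox1 at 0.18 to 0.50, Dsp at 0.00 to 0.01 and C1ql2 at 0.03 to 0.30 FPKM. The 7 blood genes summed to 94.9 to 154 FPKM in the home cage and to 160 to 308 FPKM after exploration, with Hba-a1, Hba-a2 and Hbb-bs, globin genes, making up most of it. The 8 oligodendrocyte markers summed to 141 to 168 FPKM in the WT-labelled home cage, 192 to 230 in the KO-labelled home cage, 203 to 373 in WT-labelled and 237 to 271 in KO-labelled exploration libraries. Mbp, a myelin protein, had means of 99.8, 139, 200 and 178 FPKM in that order, and Mog of 2.67, 3.12, 3.89 and 3.56 FPKM. The 8 interneuron markers summed to 215 to 249 FPKM in the home cage and to 280 to 363 FPKM after exploration. The part of these lists in the rise of Btg2, Ier2 and Tiparp was not tested.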

How the data were processed

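The deposited FPKM values, which the authors scaled to transcript length and library depth, were used as they stand. HISAT, StringTie, GATK, Bowtie2 and RSEM and the builds GRCm38 and mm10 are named per the submitters' processing notes, without their roles. The exploration table (19156 genes) and the home cage table (18257 genes) were joined on gene ID. Genes that reached 1 FPKM in 2 or more libraries were tested with limma 3.58.1 (R 4.3.3, variance trend) on log2(FPKM + 1), with all 10 libraries and 1 mean per group (6 residual and 5.71 prior degrees of freedom), and p-values were adjusted by the Benjamini-Hochberg method over all tested genes. The fit was tested on simulated data. FPKM values are not counts, so no count test was run, and antisense or overlapping genes are uncertain. Depth was estimated from low values with transcript lengths less 50 nt. Library numbers only name libraries.

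The members, gene lists, marker lists and tests were chosen with earlier results of these data known. All members were named, with Neil3. Also named were up to 3 called genes each way per list by averaged exploration change, the 5 genes most like Btg2 and Klf2, and up to 3 genes of each marker list whose group means differed over 1.5 times. A marker gene that this rule names is not reported here. Bdnf, Fos and Egr2 in single libraries, the interneuron markers Pvalb and Gad1, and genes of a list that were not called, were named after their values were seen. The settings varied were the pseudocount (0.1), the filter (none, or 5 FPKM), the scaling (median-of-ratios size factors), the groups in the fit (only those compared) and the libraries (each left out in turn).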

Additional observations from a re-analysis of the deposited data

How the results depend on the processing

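Of 610 values of members under the alternatives, 574 kept their direction and side of the threshold, 14 lost a call, 3 gained one and 19 turned, all 19 in values that were not called and on leaving out 1 library. Counts of called genes moved more. For exploration in WT-labelled mice 750 genes were called, 492 with a filter of 5 FPKM and 1690 with only the compared groups. In KO-labelled mice 3400 became 1705 with only the compared groups. Between labels, 425 in the home cage became 47 with no filter, and 71 after exploration became 16 with no filter and 36 with only the compared groups. For the difference in response 104 became 0 with a pseudocount of 0.1, 0 with no filter and 68 with a filter of 5 FPKM. With no filter, the share of called genes that were higher moved from 32.0% to 20.6% in WT-labelled exploration and from 59.3% to 46.8% in the home cage comparison. Size factors moved this share of called genes from 39.7% to 49.2% in the averaged comparison.

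Leaving out each library, 2 to 4 members (4 with all) were called for WT-labelled exploration, 2 to 5 (4) for KO-labelled, 4 to 6 (6) averaged and 0 to 1 (0) between labels in the home cage. After exploration, and for the difference in response, 0 members were called each time. Called genes ranged from 87 (without WT-labelled home cage library 2) to 1004 for WT-labelled exploration, where leaving out any 1 WT-labelled library gave 366 or fewer, from 535 (without KO-labelled home cage library 2) to 3597 for KO-labelled, and from 1927 (without the same library) to 4266 averaged. Between labels they ranged from 13 (without KO-labelled home cage library 2) to 588 in the home cage and from 17 (without any 1 WT-labelled exploration library) to 102 after exploration. In the home cage comparison, dropping WT-labelled home cage library 1 left 15 called genes and dropping library 2 left 197. Dropping WT-labelled exploration library 1 or 2 left 212 or 254, and dropping KO-labelled exploration library 2 left 241. The exploration count was 27 and 38 without KO-labelled exploration libraries 2 and 3. For the difference in response the count ranged from 0 (without WT-labelled home cage library 1, KO-labelled home cage library 2, WT-labelled exploration library 1 or KO-labelled exploration library 3) to 462 (without KO-labelled home cage library 1). The values that turned ranged, over the libraries left out, from -0.17 to 0.016 for Klf10 with exploration in KO-labelled mice. Between labels in the home cage they ranged from -0.25 to 0.60 for Btg2 and from -0.80 to 0.70 for Ier2. After exploration they ranged from -0.19 to 0.00049 for Ier2, from -0.011 to 0.21 for Klf2 and from -0.042 to 0.15 for Klf6. For the difference in response they ranged from -0.23 to 0.17 for Tiparp, from -0.81 to 0.69 for Ier2, from -0.14 to 0.10 for Ier5 and from -0.028 to 0.23 for Klf10. The median of the members with exploration moved from 0.72 to 0.95 (pseudocount of 0.1) and 0.55 (filter of 5 FPKM) in WT-labelled mice, from 0.26 to 0.53 (filter of 5 FPKM) in KO-labelled mice and from 0.46 to 0.65 averaged (pseudocount of 0.1). Where a setting tests fewer samples or more genes the test itself changes, and otherwise the cause was not tested. No paired analysis was possible because the labels number no replicates across the groups compared. Depth limits Atf3, which rests on few fragments, Maff, at 0.36 FPKM or less, and Klf4, below 1 FPKM in every library.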
